A study of Mus musculus with 9 samples.

Results

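The 9 genes described here encode ligands and receptors through which contact between cells restrains an immune response, and their RNA was followed in dendritic cells (DCs) of the mouse spleen. They were taken as the rows of the deposited gene table that carry the symbols Cd274, Pdcd1lg2, Pdcd1, Havcr2, Lgals9, Cd200, Cd200r1, Pvr and Nectin2, that is 9 of 54532 genes. The RNA came from 3 groups of 3 samples. N-mDCs were mature conventional DCs (cDCs) of normal mice without leukemia. T-DCs were CD11c+ cells with low surface MHCII, and T-mDCs were mature cDCs, both from mice with T-cell acute lymphoblastic leukemia (T-ALL). The leukemia was driven by the intracellular domain of Notch1, carried with GFP by the retrovirus MSCV-ICN1-IRES-GFP. Leukemia cells grown in earlier recipients were transferred into C57BL/6J or C57B6.SJL mice that were not irradiated, and DCs were sorted on day 15. The mice of the study were female and 6 to 8 weeks old. CD11c+ spleen cells were enriched on beads before sorting. Whether a sample is 1 mouse or a pool is not given in the sources used here, so the p-values measure the spread between these samples. The same sources do not say which recipient strain each sample came from.

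Coinhibitory molecules act as brakes on T cells and on myeloid cells. Cd274 encodes PD-L1 and Pdcd1lg2 encodes PD-L2, the ligands of PD-1, whose gene is Pdcd1. PD-1 is best known on activated T cells, where its ligation dampens signals from the T-cell receptor. Havcr2 encodes TIM-3, a receptor of exhausted T cells that splenic cDC1s also carry, and Lgals9 encodes galectin-9, a soluble lectin that binds it. Cd200 encodes a membrane glycoprotein that quiets myeloid cells through its receptor CD200R1, encoded by Cd200r1. Pvr (CD155) and Nectin2 (CD112) encode related adhesion molecules that inhibit T and NK cells through TIGIT, and activate them through CD226.

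Promoter sequence is shown for the genes whose RNA differed most between the groups and for the neighbours Cd274 and Pdcd1lg2, so that shared or differing elements can be seen beside the values. RefSeq (build GRCm38.p6) had an entry for 7 of the 9 genes. No entry was matched for Cd200r1 and Pvr. Each run below is the 250 bases before the RefSeq start of the gene, 5′ to 3′ on the strand of the gene, and capitals mark a match to one of the 6 motifs searched on either strand. The windows lie at chr16:45409054-45409303 (minus strand), chr11:46454681-46454930 (plus), chr11:78984925-78985174 (minus), chr19:29367188-29367437 (plus) and chr19:29410669-29410918 (plus).
Cd200: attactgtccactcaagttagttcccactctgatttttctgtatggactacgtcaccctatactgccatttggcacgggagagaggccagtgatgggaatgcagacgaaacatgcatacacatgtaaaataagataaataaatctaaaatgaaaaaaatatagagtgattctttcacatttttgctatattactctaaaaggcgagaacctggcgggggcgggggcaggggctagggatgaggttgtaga
Havcr2: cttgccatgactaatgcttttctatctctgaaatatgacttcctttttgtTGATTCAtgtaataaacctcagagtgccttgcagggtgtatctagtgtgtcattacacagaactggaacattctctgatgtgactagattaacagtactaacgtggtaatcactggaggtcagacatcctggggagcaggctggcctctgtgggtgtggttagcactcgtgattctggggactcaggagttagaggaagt
Lgals9: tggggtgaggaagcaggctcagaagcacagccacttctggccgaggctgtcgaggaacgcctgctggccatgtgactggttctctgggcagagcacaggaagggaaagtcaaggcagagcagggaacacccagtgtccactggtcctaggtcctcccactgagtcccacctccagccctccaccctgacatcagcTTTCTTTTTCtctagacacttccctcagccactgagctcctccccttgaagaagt
Cd274: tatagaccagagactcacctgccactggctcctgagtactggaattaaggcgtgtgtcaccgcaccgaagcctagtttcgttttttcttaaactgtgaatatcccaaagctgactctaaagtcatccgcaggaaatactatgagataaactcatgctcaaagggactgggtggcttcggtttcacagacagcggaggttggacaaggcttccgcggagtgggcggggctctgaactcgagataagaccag
Pdcd1lg2: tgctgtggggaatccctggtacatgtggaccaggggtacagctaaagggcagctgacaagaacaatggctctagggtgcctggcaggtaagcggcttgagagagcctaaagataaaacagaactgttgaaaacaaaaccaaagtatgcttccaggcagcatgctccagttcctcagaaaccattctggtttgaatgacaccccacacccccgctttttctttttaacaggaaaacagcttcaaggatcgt

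The motifs searched were the core of the interferon-stimulated response element (ISRE; GAAA repeated after any 2 bases), the GAS element TTCNNNGAA, an NF-kB site (GGGA, any base, then TTTCC), the AP-1 site TGANTCA, the cAMP response element TGACGTCA and the TATA box TATAAA. Of 32851 promoter windows of the same length, 2.98% held the ISRE core, 7.02% GAS, 0.356% NF-kB, 6.75% AP-1, 1.55% the cAMP element and 12.4% the TATA box. The Havcr2 window held TGATTCA, an AP-1 match 200 to 194 bases before the start, which reads as the same motif on both strands. The Lgals9 window held TTTCTTTTTC, the ISRE core on the other strand, 55 to 46 bases before the start. None of the 6 motifs was spelled out in the windows of Cd200, Cd274, Pdcd1lg2, Pdcd1 or Nectin2, and no matches overlapped. The windows differed in base composition, with 42.4% G and C in Cd200, 44.8% in Havcr2 and 58.4% in Lgals9, beside a median of 52.4% over all windows.

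In the genome (GRCm38) several of the genes are neighbours. Cd274 (chr19:29367455-29388095) and Pdcd1lg2 (chr19:29410919-29471157) lie 22.8 kb apart on the plus strand with 0 protein-coding genes between them. Cd200r1 (chr16:44765736-44794978, plus) and Cd200 (chr16:45382135-45409053, minus) are separated by 587.2 kb and 7 protein-coding genes. Nectin2 (chr7:19716644-19750483, minus) and Pvr (chr7:19903578-19921160, minus) are separated by 153.1 kb and 6 such genes. Havcr2 (chr11:46454935-46481255, plus) and Lgals9 (chr11:78962974-78984946, minus) share a chromosome only, and Pdcd1 lies at chr1:94038305-94052553 on the minus strand.

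Values are FPKM, the reads on a gene scaled to gene length and library size. Reads on genes ranged from 15360815 to 18440913 per sample. The labels were first set against defining markers. Itgax, which encodes CD11c, was at 42.97 to 151.6 FPKM in T-DCs, 158.4 to 230.2 in N-mDCs and 158.5 to 167.3 in T-mDCs. The summed FPKM of 5 pan-cDC markers (Itgax, Flt3, Zbtb46, Dpp4 and Kmo) was 60.7 to 194 in T-DCs, 273 to 425 in N-mDCs and 318 to 406 in T-mDCs. Of these markers, 4 of 5 were lower in T-DCs in both comparisons by limma at an adjusted p of 0.05, the exception being Itgax. The summed FPKM of 8 mature migratory DC markers such as Ccr7 and Fscn1 was at least 1020 in both mature groups and 18.0 to 68.5 in T-DCs. T-DC samples 2 and 3 stood apart from sample 1, with 58100 and 42450 summed FPKM of 8 erythroid genes against 607, and 4054 and 1420 summed FPKM of 5 neutrophil genes against 8.51. In the other groups the erythroid sum ran from 15.1 to 5359 and the neutrophil sum from 3.59 to 653. Within T-mDCs, samples 2 and 3 differed from each other by much less than other pairs (chi-square per gene 1.85 against 8.11 to 36.1 for all other pairs within a group) but by more than sampling noise, and were kept as separate samples. In sorted bulk RNA, fewer cells of a type and less RNA per cell cannot be told apart.

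The genes spanned a wide range of levels. Over the 9 samples the median FPKM was 75.5 for Havcr2 and 71.7 for Cd274, above 95.5% and 95.1% of the 12746 genes tested. It was 24.1 for Lgals9, 11.6 for Pdcd1lg2, 7.21 for Cd200, 5.58 for Cd200r1 and 5.12 for Pvr. Nectin2 and Pdcd1 were near the bottom, at medians of 1.04 and 1.03, above 9.1% and 8.9% of tested genes. All 9 genes passed the filter, which asked for 3 or more samples at 1 FPKM or above.

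The order of the mean FPKM differed between the groups. In N-mDCs it ran Havcr2, Cd274, Lgals9, Pvr, Pdcd1lg2, Cd200, Cd200r1, Pdcd1 and Nectin2, and the samples of neighbours in that order overlapped except between Lgals9 and Pvr and between Cd200r1 and Pdcd1. In T-DCs it ran Lgals9, Cd274, Havcr2, Pdcd1lg2, Cd200r1, Pvr, Cd200, Nectin2 and Pdcd1, with a gap only between Havcr2 and Pdcd1lg2. In T-mDCs it ran Cd274, Havcr2, Cd200, Pdcd1lg2, Lgals9, Cd200r1, Pvr, Nectin2 and Pdcd1, with gaps below Havcr2, Cd200r1 and Pvr. Cd200 thus stood at rank 6 of 9 in N-mDCs, rank 7 in T-DCs and rank 3 in T-mDCs, and Lgals9 at rank 3, 1 and 5.

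**Figure D1:**
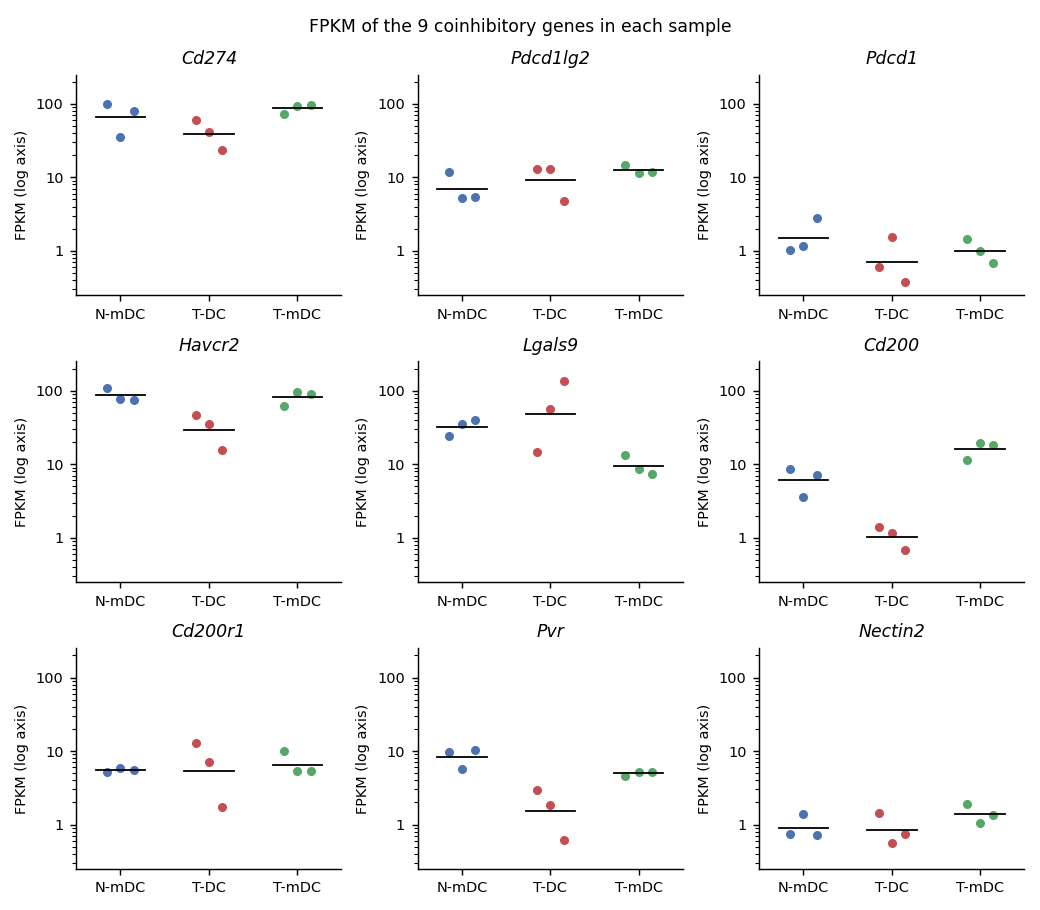
FPKM of each of the 9 genes on a log axis (0.25 to 250 in every panel) in the 3 N-mDC (blue), 3 T-DC (red) and 3 T-mDC (green) samples, samples 1 to 3 from left to right. Points are samples and black lines geometric means. Cd200, Pvr and Havcr2 were lower in every T-DC sample than in any mature sample, while Lgals9 spread from 14.8 to 133.2 within T-DCs.

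The comparison of the 3 groups asked which coinhibitory genes set the MHCII-low cells apart from mature cDCs. Cd200, Pvr and Havcr2 were lower in T-DCs than in both mature groups. The largest of these differences was that of Cd200 against T-mDCs, while against N-mDCs Cd200 and Pvr differed by a similar amount. Cd200 in both comparisons and Pvr against N-mDCs were called in 9 of 9 fits that leave out a sample. Havcr2 in both comparisons and Pvr against T-mDCs were called in only 2 of 9. With T-mDC samples 2 and 3 averaged into 1, only 1 of the 9 genes, Cd200, was called against T-mDCs. None of the 9 genes was called higher in T-DCs. PD-L1 and PD-L2 transcripts, and the transcripts of PD-1, CD200R1 and nectin-2, passed no test. By a moderated F-test in limma over the 3 groups, 3 of 9 genes passed an adjusted p of 0.05 (Cd200 0.00208, Pvr 0.0162, Havcr2 0.0388), beside 18% of all tested genes. Against N-mDCs, 3 of 9 genes were lower in T-DCs and 0 higher, beside 10.3% and 6.1% of tested genes. Against T-mDCs the counts were again 3 and 0, beside 8.79% and 5.44%. The median difference of the 9 genes in log2(FPKM + 1) was -0.52 for T-DCs minus N-mDCs and -0.40 for T-DCs minus T-mDCs, while that of all tested genes was 0.05 and 0.07. Every T-DC sample lay below every N-mDC sample for 3 genes and above for 0, beside 16.4% and 16% of tested genes, and below every T-mDC sample for 4 genes and above for 1, beside 18.1% and 16.8%. These 2 comparisons share the T-DC samples. Without T-DC sample 1 the counts of called genes among the 9 rose to 4 against N-mDCs and 5 against T-mDCs. Calls among all tested genes also rose, from 2096 to 5030 against N-mDCs and from 1813 to 4475 against T-mDCs. The rise was thus not particular to the 9 genes. T-DC sample 1 was also fitted as the lone T-DC sample, its spread taken to be like that of the other groups. Cd200 then differed by -1.58 from N-mDCs and by -2.84 from T-mDCs in log2(FPKM + 1).

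**Figure D2:**
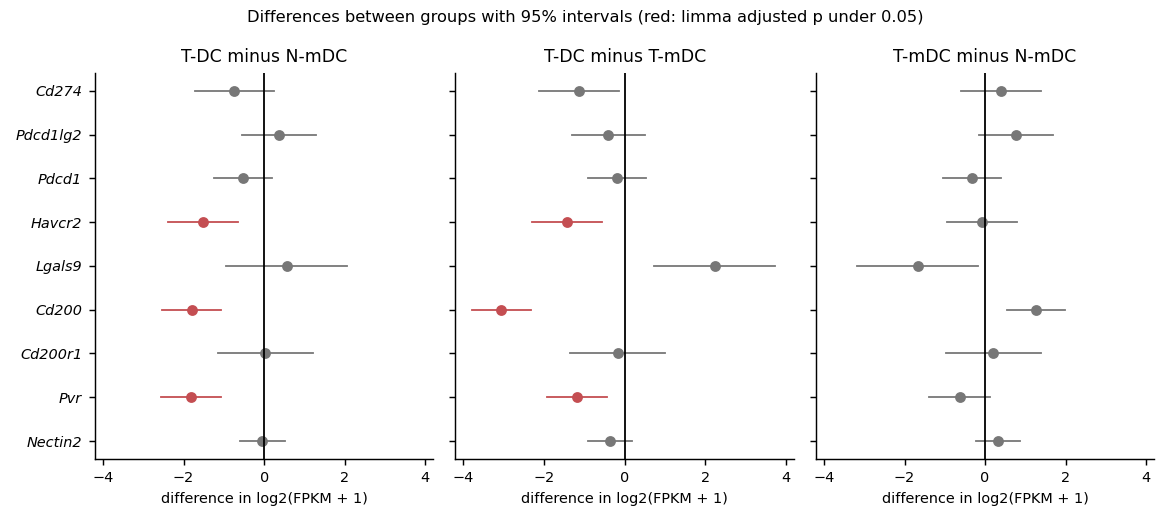
Difference in log2(FPKM + 1) for each gene in the 3 comparisons, with 95% intervals from limma (n = 3 per group) and red marking an adjusted p under 0.05. Cd200, Pvr and Havcr2 are red in both T-DC panels, at -3.06 to -1.18, and no gene is red between T-mDCs and N-mDCs.

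Cd200, the ligand that quiets myeloid cells, showed the largest difference of the 9 genes against T-mDCs. Its FPKM was 8.72, 3.54 and 7.21 in N-mDCs (samples 1, 2 and 3 in this order throughout), 1.38, 1.15 and 0.674 in T-DCs, and 11.5, 19.4 and 18.5 in T-mDCs. Every T-DC sample was below every mature sample, and every T-mDC sample was above every N-mDC sample. Reads on the gene numbered 34 to 1243 per sample, and 34 to 82 in T-DCs, so the T-DC level is the least precise. The summed FPKM of 8 mature migratory DC markers was also lower in T-DCs, at 68.2, 68.5 and 18.0. It was 2337, 1020 and 1527 in N-mDCs and 1222, 1859 and 1917 in T-mDCs. Of these markers 7 passed the filter, and all 7 were called lower in T-DCs in both comparisons, beside 10.3% and 8.79% of tested genes. The part of DC maturation in the Cd200 values was not tested. On the log2(FPKM + 1) scale, which understates changes of low genes, Cd200 fell by 3.06 from T-mDCs to T-DCs (SE 0.32, limma adjusted p = 0.00177) and by 1.80 from N-mDCs to T-DCs (SE 0.32, adjusted p = 0.00821). As a ratio of mean FPKM, T-DCs held 0.0648 of the T-mDC level and 0.164 of the N-mDC level. Both calls were kept without any 1 of the 9 samples. With T-DC sample 1 as the lone T-DC sample the difference from T-mDCs was still called (-2.84, adjusted p = 0.0405) and that from N-mDCs was not (-1.58, adjusted p = 0.0958). The groups of T-mDCs and N-mDCs differed by 1.26 (95% interval 0.53 to 1.99), which did not pass the limma test over all genes (adjusted p = 0.0915) except without T-DC sample 1 (adjusted p = 0.0494).

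Cd200r1, the receptor of CD200 on myeloid cells, did not follow its ligand. Its FPKM was 5.21, 5.96 and 5.58 in N-mDCs, 12.8, 7.03 and 1.73 in T-DCs, and 9.92, 5.33 and 5.28 in T-mDCs. The T-DC samples surrounded both mature groups. The summed FPKM of 8 macrophage markers (Adgre1, Csf1r, C1qa, C1qb, C1qc, Vcam1, Spic and Mertk) was 3263, 1180 and 753 in the same T-DC samples and 1390, 479 and 479 in T-mDCs, but 1623, 3397 and 1954 in N-mDCs, where Cd200r1 was nearly level. The part of macrophages in the Cd200r1 values was not tested. Cd200r1 differed by 0.03 between T-DCs and N-mDCs (95% interval -1.15 to 1.21, limma adjusted p = 0.974), so a difference of about 2-fold in either direction is within the interval.

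Within each sample the ratio of Cd200 to Cd200r1 FPKM was 1.67, 0.594 and 1.29 in N-mDCs. It was 0.108, 0.163 and 0.389 in T-DCs and 1.16, 3.63 and 3.50 in T-mDCs. Ligand transcript was thus below receptor transcript in every T-DC sample and in 1 of 6 mature samples. The T-DC ratios were lower than all mature ratios, by a geometric mean factor of 0.174 relative to N-mDCs and 0.0773 relative to T-mDCs (two-sided exact permutation p = 0.1 for each, the smallest that 3 against 3 allows; 0.3 adjusted over the 15 ratio tests of 5 gene pairs).

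Pvr, the CD155 ligand of TIGIT and CD226, was also lower in T-DCs. Its FPKM was 9.58, 5.69 and 10.2 in N-mDCs, 2.95, 1.84 and 0.624 in T-DCs, and 4.63, 5.17 and 5.12 in T-mDCs. The 3 groups did not overlap, with T-mDCs between the others. Reads on Pvr in T-DCs numbered 58 to 324. The difference of T-DCs from N-mDCs was -1.81 in log2(FPKM + 1) (SE 0.33, limma adjusted p = 0.00895), and this call was kept without any 1 of the 9 samples but not with T-DC sample 1 as the lone T-DC sample (-1.23, adjusted p = 0.067). The difference from T-mDCs was smaller, at -1.18 (SE 0.33, adjusted p = 0.0465), and was called in only 2 of 9 fits that leave out a sample (those without T-DC sample 1 or N-mDC sample 2). T-mDCs and N-mDCs differed by -0.63 (95% interval -1.38 to 0.12, adjusted p = 0.372). The pseudogene Gm16184 overlaps Pvr on the opposite strand, and its FPKM was 0.338 to 0.877 in T-DCs, 7.03, 0.867 and 4.90 in N-mDCs and 1.39 to 2.47 in T-mDCs. Whether counting used strand is not given in the sources used here, so reads of both genes may not be told apart.

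Nectin2, the related ligand CD112, was near the floor in every group. Its FPKM was 0.732, 1.404 and 0.709 in N-mDCs, 1.42, 0.554 and 0.735 in T-DCs, and 1.91, 1.04 and 1.34 in T-mDCs, on 30 to 126 reads. All 3 groups overlapped. T-DCs differed by -0.04 from N-mDCs (95% interval -0.59 to 0.51, limma adjusted p = 0.924) and by -0.36 from T-mDCs (95% interval -0.91 to 0.19, adjusted p = 0.351). Pvr was therefore above Nectin2 per length in 8 of 9 samples, the exception being T-DC sample 3.

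Havcr2, which encodes TIM-3, was abundant in all groups and lowest in T-DCs. Its FPKM was 109.5, 77.8 and 75.5 in N-mDCs, 47.2, 34.8 and 15.7 in T-DCs, and 62.6, 95.1 and 91.4 in T-mDCs. T-DCs lay below both mature groups without overlap, and the mature groups overlapped. The summed FPKM of 6 cDC1 markers (Xcr1, Clec9a, Cadm1, Batf3, Itgae and Wdfy4) was also lower, at 102.3, 48.2 and 21.6 in T-DCs, 299, 232.4 and 202.8 in N-mDCs and 272.4, 424.4 and 420.4 in T-mDCs, with 4 of 6 called lower against N-mDCs and 6 of 6 against T-mDCs. The part of cDC1s in the Havcr2 values was not tested. The differences of T-DCs were -1.51 from N-mDCs (SE 0.38, limma adjusted p = 0.0309) and -1.43 from T-mDCs (SE 0.38, adjusted p = 0.0397). Both calls were close to the threshold and were kept in only 2 of 9 fits that leave out a sample (without T-DC sample 1 or T-mDC sample 1), with adjusted p up to 0.106 and 0.151. With T-DC sample 1 as the lone T-DC sample the differences were -0.86 (adjusted p = 0.162) and -0.78 (adjusted p = 0.181). T-mDCs and N-mDCs differed by -0.08 (95% interval -0.95 to 0.79).

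Lgals9, the galectin-9 ligand of TIM-3, had the widest spread among T-DC samples of the 9 genes. Its FPKM was 24.1, 35.5 and 40.1 in N-mDCs, 14.8, 55.8 and 133.2 in T-DCs, and 13.3, 8.67 and 7.46 in T-mDCs. Every T-DC sample was above every T-mDC sample, while T-DCs surrounded N-mDCs. T-DC samples 2 and 3, the higher of the T-DC samples, were also those with high erythroid and neutrophil sums, and the part of those cells in the Lgals9 values was not tested. Lgals9 differed by 2.23 between T-DCs and T-mDCs (SE 0.66, 95% interval 0.73 to 3.73, limma adjusted p = 0.0554) and by 0.56 between T-DCs and N-mDCs (95% interval -0.94 to 2.06, adjusted p = 0.575). Without T-DC sample 1 these became 3.05 (adjusted p = 0.000987) and 1.38 (adjusted p = 0.0263). With T-DC sample 1 as the lone T-DC sample they became 0.59 (adjusted p = 0.378) and -1.08 (adjusted p = 0.137).

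The ratio of Lgals9 to Havcr2 FPKM was 0.220, 0.456 and 0.532 in N-mDCs, 0.314, 1.60 and 8.495 in T-DCs and 0.212, 0.0912 and 0.0816 in T-mDCs. The ligand exceeded the receptor per length only in T-DC samples 2 and 3. T-DC ratios were above all T-mDC ratios, by a geometric mean factor of 13.9 (two-sided exact permutation p = 0.1, adjusted 0.3), and overlapped the N-mDC ratios (p = 0.3).

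Cd274, the PD-L1 gene, was among the most abundant of the 9 genes in every group. Its FPKM was 98.7, 35.5 and 80.1 in N-mDCs, 60.7, 41.2 and 23.4 in T-DCs, and 71.7, 94.3 and 95.7 in T-mDCs. T-DCs overlapped N-mDCs and lay below all T-mDC samples. The differences of T-DCs were -0.74 from N-mDCs (95% interval -1.72 to 0.25, limma adjusted p = 0.252) and -1.13 from T-mDCs (95% interval -2.12 to -0.15, adjusted p = 0.119). The latter was called only without T-DC sample 1 (-1.45, adjusted p = 0.0329) among the 20 alternatives. In T-DC sample 3, the lowest, 23.4 FPKM still stood for 1287 reads.

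Pdcd1lg2, the PD-L2 gene next to Cd274, passed no test, and its samples overlapped in all comparisons. Its FPKM was 11.8, 5.17 and 5.36 in N-mDCs, 12.8, 12.9 and 4.68 in T-DCs, and 14.9, 11.5 and 11.6 in T-mDCs. T-DCs overlapped both mature groups. They differed by 0.37 from N-mDCs (95% interval -0.54 to 1.29, limma adjusted p = 0.539) and by -0.40 from T-mDCs (95% interval -1.32 to 0.52, adjusted p = 0.535).

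The ratio of the transcripts of the PD-1 ligands was lowest on average in T-DCs. The ratio of Cd274 to Pdcd1lg2 FPKM was 8.38, 6.87 and 14.9 in N-mDCs, 4.75, 3.19 and 4.996 in T-DCs, and 4.82, 8.17 and 8.23 in T-mDCs. PD-L1 transcript exceeded PD-L2 transcript per length in all 9 samples. T-DC ratios were below all N-mDC ratios, by a geometric mean factor of 0.444 (two-sided exact permutation p = 0.1, adjusted 0.3), and overlapped those of T-mDCs through T-mDC sample 1 (p = 0.2).

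Pdcd1, the gene of their receptor PD-1, was measured on 11 to 97 reads per sample. Its FPKM was 1.03, 1.16 and 2.77 in N-mDCs, 0.608, 1.54 and 0.375 in T-DCs, and 1.46, 0.992 and 0.676 in T-mDCs. All 3 groups overlapped, and T-DCs differed by -0.52 from N-mDCs (95% interval -1.24 to 0.20, limma adjusted p = 0.27) and by -0.18 from T-mDCs (95% interval -0.90 to 0.54, adjusted p = 0.728). The highest T-DC value was in sample 2, which also held the highest T-lineage sum of its group (23.1 FPKM over Cd3e, Cd3d, Cd3g, Cd2, Lat and Bcl11b, against 1.21 and 4.61). The T-lineage sum was 15.7 to 38.5 in N-mDCs and 2.995 to 6.66 in T-mDCs, and its part in the Pdcd1 values was not tested. The values are RNA levels and do not measure PD-1 protein on the cell surface.

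**Figure D3:**
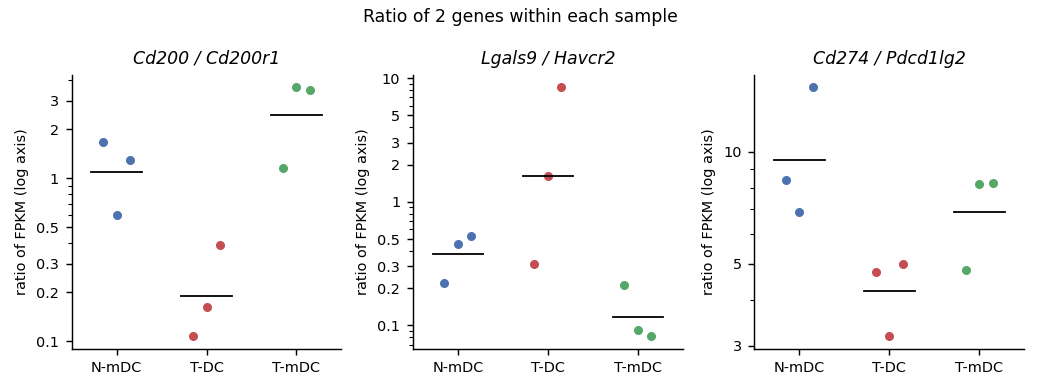
Ratio of the FPKM of 2 genes within each sample on log axes, for Cd200 over Cd200r1, Lgals9 over Havcr2 and Cd274 over Pdcd1lg2. Points are samples, black lines geometric means. The Cd200 ratio is 0.108 to 0.389 in T-DCs and at least 0.594 in all mature samples, and the Lgals9 ratio passes 1 only in T-DC samples 2 and 3.

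The comparison of T-mDCs with N-mDCs asked whether mature cDCs of leukemic spleen carry other levels of these genes. None of the 9 was called by limma, beside 2.21% of all tested genes (0.69% higher and 1.52% lower). At an unadjusted p under 0.05 there were 2, Cd200 (1.26, limma adjusted p = 0.0915) and Lgals9 (-1.67, limma adjusted p = 0.249). Limma voom on recovered reads also called 0 of 9. Cd200 was higher in every T-mDC sample than in any N-mDC sample, as were 19.3% of tested genes. Lgals9 and Pvr were lower in every T-mDC sample, as were 15.7% of tested genes. Lgals9 was called when only the groups compared were fitted (limma adjusted p = 0.024), without T-DC sample 1 (adjusted p = 0.0328) and with it as the lone T-DC sample (adjusted p = 0.0243). The 95% interval for Pdcd1lg2 was -0.14 to 1.69, and that for Cd274 was -0.59 to 1.38.

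Since pan-cDC markers were lower in T-DCs, each gene was also expressed per 100 FPKM of their sum, a scale chosen after the values were seen. Itgax, the 1 marker not called lower in T-DCs, was the largest part of that sum in every sample. It made up 42.97 to 151.6 of 60.7 to 194 FPKM in T-DCs and 158.4 to 230.2 of 273 to 425 in N-mDCs. In T-mDCs it made up 158.5 to 167.3 of 318 to 406. The scale thus rests more on Itgax in T-DCs than in mature groups, and a sum without Itgax was not tested. Relative to N-mDCs, Itgax differed by -1.09 in log2(FPKM + 1) in T-DCs, and the other markers by -1.92 to -2.76. Relative to T-mDCs these were -0.96 and -2.39 to -3.21. A sum without Itgax would thus raise the T-DC values here relative to the mature groups. The comparisons that follow are given for the sum with Itgax only. On the scale of all 5 markers, 62.6% of all tested genes were higher in every T-DC than in every N-mDC sample. The share higher than in every T-mDC sample was 77.9%, so a higher value there sets no gene apart. Lower values were rarer, at 4.1% and 3.79% of tested genes. Cd200 was among them in both comparisons, at 2.05, 1.30 and 2.43 in N-mDCs, 0.709, 1.00 and 1.11 in T-DCs and 3.63, 4.84 and 4.55 in T-mDCs. Pvr was lower in T-DCs only against N-mDCs, with 2.25, 2.09 and 3.45 in N-mDCs, 1.52, 1.61 and 1.03 in T-DCs and 1.46, 1.29 and 1.26 in T-mDCs. Havcr2 was not lower on this scale, at 25.8, 28.5 and 25.4 in N-mDCs, 24.3, 30.4 and 25.9 in T-DCs and 19.7, 23.8 and 22.5 in T-mDCs. With Itgax in the sum, the Havcr2 level per pan-cDC marker level in T-DCs was 1.01 times that in N-mDCs (geometric means). Cd274 was higher in every T-DC sample on this scale, like most tested genes.

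**Figure D4:**
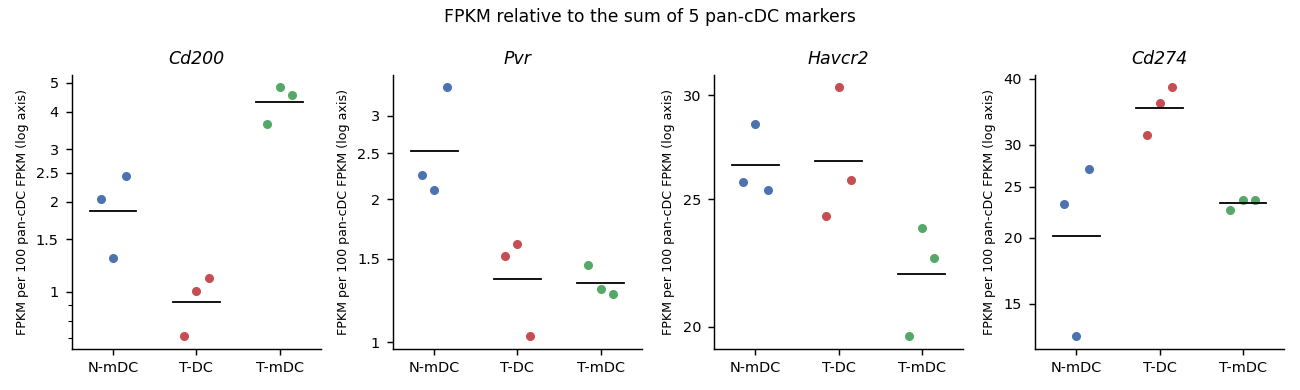
FPKM per 100 FPKM of 5 summed pan-cDC markers on log axes for Cd200, Pvr, Havcr2 and Cd274, with samples as points and geometric means as black lines. Itgax is the largest part of that sum in every sample. A sum without Itgax was not tested. With Itgax in the sum, Cd200 is lower in all T-DC samples (0.709 to 1.11). Havcr2 overlaps between T-DCs (24.3 to 30.4) and N-mDCs (25.4 to 28.5), and Cd274 is higher in T-DCs (31.2 to 38.6).

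Tested genes with the most similar profile were sought for Cd200, Pvr and Havcr2, as the smallest root-mean-square distance between log2(FPKM + 1) values over the 9 samples after centring each gene. Closest to Cd200 were Eno2 (distance 0.107), Arhgap22 (0.13) and Swap70 (0.155). Eno2, an enolase of glycolysis, ran from 0.07 to 0.603 FPKM in T-DCs, 2.23 to 6.38 in N-mDCs and 7.58 to 14.2 in T-mDCs. Closest to Pvr were Il4ra (0.108), Rnf19b (0.158) and Gabbr1 (0.168). Il4ra, a receptor chain for IL-4 and IL-13, ran from 6.88 to 22.7 FPKM in T-DCs, 38.8 to 54.6 in N-mDCs and 27.6 to 33.2 in T-mDCs. Closest to Havcr2 were Pld2 (0.152), a gene whose symbol the table holds as a date and whose identifier is ENSMUSG00000050379 (0.158), and Btg1 (0.161), an antiproliferative gene at 70.1 to 214 FPKM in T-DCs and 242 to 458 in the mature groups.

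Other binding partners of these proteins were described as a list of 16 genes, of which 13 passed the filter. Against N-mDCs 1 was higher and 4 were lower in T-DCs by limma, beside 6.1% and 10.3% of all tested genes. Against T-mDCs 1 was higher and 2 were lower, beside 5.44% and 8.79%. Ceacam1, another ligand of TIM-3, was higher in both, at 71.05, 43.2 and 28.7 FPKM in T-DCs, 6.24 to 13.4 in N-mDCs and 2.42 to 15.5 in T-mDCs. Its differences were 2.22 (adjusted p = 0.0426) and 2.98 (adjusted p = 0.0172), and they were called in 1 and 6 of 9 fits that leave out a sample. Ceacam1 and the macrophage sum were both highest in sample 1 and lowest in sample 3 of T-DCs and of T-mDCs, but N-mDCs had macrophage sums of 1623 to 3397 beside low Ceacam1, and the part of macrophages was not tested. Nectin1, a nectin that binds CD96, was lower in both, at 1.82 to 6.38 FPKM in T-DCs, 12.6 to 21.1 in N-mDCs and 19.5 to 28.04 in T-mDCs. Its differences of -2.07 (adjusted p = 0.0073) and -2.56 (adjusted p = 0.00357) were called without any 1 sample.

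Cd80, a costimulatory ligand that also binds PD-L1 on the same cell, was lower in both, with differences of -3.20 from N-mDCs (limma adjusted p = 0.00289) and -2.25 from T-mDCs (adjusted p = 0.0128, lost without T-mDC sample 2 or 3, the highest adjusted p being 0.0646). Cd80 was at 1.49 to 5.10 FPKM in T-DCs, 24.1 to 41.1 in N-mDCs and 9.23 to 24.3 in T-mDCs. Cd96, a receptor of CD155 on T and NK cells, was lower than in N-mDCs (-1.27, adjusted p = 0.0368, called in 3 of 9 fits that leave out a sample). The summed FPKM of 6 NK-cell markers moved the same way, at 47.8 to 142 in N-mDCs and 1.33 to 28.04 in T-DCs, and its part in the Cd96 values was not tested. Nectin4, named after its value was seen, was the other lower gene against N-mDCs (-0.999, adjusted p = 0.04997, called only without T-DC sample 1 in the fits that leave out a sample).

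Of 16 other coinhibitory genes, 13 passed the filter. Against N-mDCs 2 were higher and 3 lower in T-DCs, beside 6.1% and 10.3% of all tested genes. Against T-mDCs 0 were higher and 1 was lower, beside 5.44% and 8.79%, so the latter counts were near those shares. Btla, a receptor that inhibits lymphocytes and marks cDC1s, was lower in both. Its FPKM was 17.2, 9.06 and 4.73 in T-DCs, 24.45 to 38.7 in N-mDCs and 56.65 to 74.8 in T-mDCs. The difference from T-mDCs of -2.75 (limma adjusted p = 0.00361) was called without any 1 sample, and that from N-mDCs of -1.62 (adjusted p = 0.0249) in 5 of 9 such fits. The cDC1 sum was lower in T-DCs as given for Havcr2, and the summed FPKM of 5 B-cell markers was 31.2 to 88.7 in T-DCs, 207.5 to 282.6 in N-mDCs and 49.4 to 179.6 in T-mDCs, with 4 of 5 called lower against N-mDCs and 2 of 5 against T-mDCs. The part of either cell type in the Btla values was not tested. Tnfrsf14, which encodes the BTLA ligand HVEM, was higher against N-mDCs (1.96, adjusted p = 0.0408, called in 1 of 9 such fits). It was at 29.3 FPKM in T-DC sample 1 and at 112.4 and 105.6 in samples 2 and 3, those with high erythroid and neutrophil sums, against 8.90 to 24.9 in N-mDCs, and the part of those cells was not tested.

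Clec4g, a ligand of LAG-3, was at 0.0535 to 0.204 FPKM in T-DCs, 1.06 to 2.18 in N-mDCs and 0.221 to 0.366 in T-mDCs, and was lower than in N-mDCs in both leukemic groups (-1.22, limma adjusted p = 0.00546, called in 9 of 9 fits that leave out a sample, and -1.05, adjusted p = 0.0347, 3 of 9). Lag3, a coinhibitory receptor for MHCII, was lower in T-DCs than in the normal group (-1.35, adjusted p = 0.044, called in 1 of 9 fits that leave out a sample). It was at 9.37 to 26.4 FPKM in T-DCs, 28.9 to 61.5 in N-mDCs and 16.8 to 22.4 in T-mDCs. T-DCs did not differ from T-mDCs (-0.23, limma adjusted p = 0.713). The summed FPKM of 5 plasmacytoid DC markers was 119 to 195 in T-DCs, 224 to 537 in N-mDCs and 57.7 to 113 in T-mDCs. The part of plasmacytoid DCs in the Lag3 values was not tested. Cd47, a signal against phagocytosis and named after its value was seen, was higher than in N-mDCs (0.75, adjusted p = 0.0364, called in 1 of 9 such fits). Its FPKM was 77.7, 127.0 and 98.7 in T-DCs, 56.2 to 63.2 in N-mDCs and 61.8 to 62.3 in T-mDCs. T-DC samples 2 and 3, the higher of the T-DC samples, were those with high erythroid and neutrophil sums. The part of those cells in the Cd47 values was not tested.

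The 15 genes known to act on PD-L1 all passed the filter. T-DCs had 4 of them lower against N-mDCs and 2 lower against T-mDCs, beside 10.3% and 8.79% of all tested genes. In either comparison 0 were higher, beside 6.1% and 5.44%. Relb, an NF-kB subunit of mature DCs, was at 8.43 to 19.2 FPKM in T-DCs, 84.0 to 144 in N-mDCs and 110.3 to 159 in T-mDCs. Its differences were -2.88 (limma adjusted p = 0.00151) and -3.29 (adjusted p = 0.00143), both called without any 1 sample. Irf1, the interferon-induced activator of Cd274, was lower than in N-mDCs (-1.79, adjusted p = 0.0075) and at -0.83 from T-mDCs (adjusted p = 0.111). Jak2, a kinase of interferon-gamma signalling whose gene lies on chromosome 19 like Cd274, differed by -1.24 (adjusted p = 0.0487, called in 2 of 9 fits that leave out a sample) and -1.95 (adjusted p = 0.0105, 7 of 9). Cmtm6, which stabilises PD-L1 protein, did not pass the test, at -0.54 (adjusted p = 0.121) and -0.38 (adjusted p = 0.277). The median difference of the 15 genes was -0.54 and -0.35, beside 0.05 and 0.07 for all tested genes.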

How the data were processed

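RNA of the 9 sorted samples was sequenced at Novogene after extraction with a column kit. The authors deposited FPKM for 54532 genes with gene lengths and positions. The submitters' processing notes name the build mm10; the aligner, counter and strandedness are not given in the sources used here. FPKM times gene length gave whole reads within 0.01 of a read for 100% of values. Depth was similar between samples, and genes with under about 100 reads, such as Pdcd1, are least precise.

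Tests were run on log2(FPKM + 1) of the 12746 genes that reached 1 FPKM in 3 or more samples. All 3 groups were fitted together in limma 3.58.1 (R 4.3.3) with a variance trend, and p-values were adjusted by Benjamini-Hochberg over all tested genes at a threshold of 0.05. Fold changes on this scale understate changes of low genes. The procedure was tested on simulated data. Ratios within a sample were compared by two-sided exact permutation tests. The 9 genes and all gene lists were chosen with earlier results of these data known. All 9 genes were named; of each pathway list and comparison, at most the 4 called genes with the largest difference; of F-test passers, the 3 nearest profiles.

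Alternatives were a pseudocount of 0.1, no filter, a filter at 5 FPKM, quantile normalization, rescaling to TPM, a fit of only the groups compared, no variance trend, limma voom on recovered reads, a replicate block, T-mDC samples 2 and 3 averaged into 1, and leaving out each sample. T-DC sample 1 as the lone T-DC sample, ratios and the pan-cDC scale were added after seeing the data. Promoter windows came from RefSeq, and 8 of the 9 genes have the same start and end in GENCODE M21. No reads, single-cell data, flow cytometry or qRT-PCR values were used here. The values of 1 gene among those known to act on PD-L1 are not reported here.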

Additional observations from a re-analysis of the deposited data

How the results depend on the processing

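The calls of Cd200 in both T-DC comparisons and of Pvr against N-mDCs were kept under all 19 alternatives set first, and of these only Cd200 against T-mDCs under T-DC sample 1 as the lone T-DC sample. Over 20 alternatives Havcr2 was called in 7 (against N-mDCs) and 8 (against T-mDCs), and Pvr against T-mDCs in 5, with the direction kept throughout. Adjusted p ranged over the alternatives from 0.0046 to 0.162 and from 0.00656 to 0.181 for Havcr2 and from 0.00651 to 0.272 for Pvr against T-mDCs. Of the 9 genes, the 3 called against T-mDCs became 1 with no filter, with only the 2 groups compared, with T-mDC samples 2 and 3 averaged and with T-DC sample 1 alone. T-DC sample 1 alone gave 0 called against N-mDCs. In T-mDCs against N-mDCs, 1 was called with T-DC sample 1 alone and with only the 2 groups. Without 1 sample the counts were 2 to 4 (T-DC, N-mDC), 1 to 5 (T-DC, T-mDC), 0 to 2 (T-mDC, N-mDC) and 1 to 4 by the F-test; the highest came without T-DC sample 1. Leaving out each sample gave differences of -0.49 to 0.68, -0.69 to 0.48 and -0.0606 to 0.34 for Cd200r1 in the same 3 comparisons, -0.0393 to 0.69 (Cd274) and -0.19 to 0.11 (Havcr2) between T-mDCs and N-mDCs, -0.16 to 1.38 (Lgals9) and -0.23 to 0.12 (Nectin2) between T-DCs and N-mDCs, and -0.44 to 0.0026 (Pdcd1) and -0.62 to 0.0281 (Pdcd1lg2) between T-DCs and T-mDCs.

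Differences that turned direction, none of them called, were Cd200r1 against N-mDCs (-0.038 with a pseudocount of 0.1, -0.10 as TPM, -0.0625 by voom), Nectin2 against N-mDCs (0.23 by quantile normalization), Havcr2 in T-mDCs against N-mDCs (0.12 by quantile normalization, 0.14 as TPM, 0.016 by voom) and, with T-DC sample 1 alone, Lgals9 (-1.08) and Nectin2 (0.33) against N-mDCs and Pdcd1lg2 (0.0204), Cd200r1 (0.87) and Nectin2 (0.012) against T-mDCs. The causes were not tested. Rescaling to TPM shifted the median of all genes by -0.12, -0.29 and 0.19 in the 3 comparisons and voom by -0.04, -0.14 and 0.10.

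Of all tested genes, 2096 were called between T-DCs and N-mDCs, and 1070 with only the 2 groups, 1394 with T-mDC samples 2 and 3 averaged, 746 with T-DC sample 1 alone and 980 to 5030 without 1 sample. Between T-DCs and T-mDCs 1813 became 1190 at 5 FPKM, 1036 with only the 2 groups, 540 with the mean, 741 with T-DC sample 1 alone and 541 to 4475 without 1 sample. Between T-mDCs and N-mDCs 282 became 107 with a pseudocount of 0.1, 111 at 5 FPKM, 850 with only the 2 groups, 173 by voom, 23 with the mean, 849 with T-DC sample 1 alone and 23 to 1022 without 1 sample. The share of calls that were higher went from 38.2% to 22.2% (TPM) and 25% (voom) between T-DCs and T-mDCs, and from 31.2% to 46.8% (TPM) between T-mDCs and N-mDCs.

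Samples with the same replicate number did not deviate together (r of -0.475 to 0.269), and a sample was closest to its own number in 2 of 3, 0 of 3 and 0 of 3 cases. With a replicate block, 1 of the 9 genes was called between T-DCs and T-mDCs (Cd200), and 1378 of all genes between T-DCs and N-mDCs and 78 between T-mDCs and N-mDCs. Few reads limit Pdcd1 and Nectin2, and also Cd200 in T-DCs (34 to 82 reads) and Pvr in T-DC sample 3 (58 reads).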

Other observations

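Inhibitory receptors of myeloid cells beyond TIM-3 and CD200R1 were a list of 12 genes, all of which passed the filter. Against N-mDCs 0 were higher and 1 was lower in T-DCs, beside 6.1% and 10.3% of all tested genes. Against T-mDCs 1 was higher and 1 lower, beside 5.44% and 8.79%. These counts were near the shares of all tested genes. Siglecg, a sialic acid receptor that restrains B cells and DCs, was lower in T-DCs than in both mature groups. Its FPKM was 2.73, 4.46 and 1.47 in T-DCs, 48.2, 35.0 and 41.2 in N-mDCs and 19.3, 39.3 and 38.5 in T-mDCs. The differences in log2(FPKM + 1) were -3.51 (limma adjusted p = 0.00101) and -3.11 (adjusted p = 0.00197), both called without any 1 sample and with T-DC sample 1 as the lone T-DC sample. The summed FPKM of 5 B-cell markers was also lower than in N-mDCs, at 31.2 to 88.7 in T-DCs and 207.5 to 282.6 in N-mDCs, and overlapped that of T-mDCs (49.4 to 179.6), and the part of B cells was not tested. Pilra, an inhibitory receptor of myeloid cells, was higher than in T-mDCs (2.22, adjusted p = 0.0277, called in 6 of 9 fits that leave out a sample), at 91.0, 55.7 and 31.5 FPKM in T-DCs and 25.2, 7.2 and 6.88 in T-mDCs. Pilra and the macrophage sum were both highest in sample 1 of each of these groups. In N-mDCs Pilra was at 22.1, 40.8 and 31.5 FPKM, beside macrophage sums of 1623, 3397 and 1954. T-DCs differed from N-mDCs in Pilra by 0.81 (limma adjusted p = 0.303). The part of macrophages in the Pilra values was not tested. The other 10 genes of the list passed in neither T-DC comparison.

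Of 10 signalling genes below these receptors, 1 was called in T-DCs against N-mDCs, beside 16.4% of all tested genes. Against T-mDCs 0 were called, beside 14.2%. The list thus held no more calls than other tested genes. Ptpn11, which encodes the phosphatase SHP-2 that PD-1 recruits, was higher in T-DCs (32.3, 24.8 and 24.99 FPKM) than in N-mDCs (16.8, 11.5 and 16.0 FPKM), by 0.85 (limma adjusted p = 0.0201), and was called without any 1 sample, with adjusted p up to 0.0494. In T-mDCs it was at 18.3 to 19.8 FPKM, and its difference of 0.49 from T-DCs did not pass (adjusted p = 0.125). The list medians were 0.08 against N-mDCs and 0.21 against T-mDCs, beside 0.05 and 0.07 for all tested genes.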
